A study of Mus musculus with 8 samples.

Results

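The muscle myosin heavy and light chains were examined by RNA sequencing in mouse myogenic cells depleted of Septin9, a filament-forming GTP-binding protein of the cytoskeleton. The 9 genes, Myh3, Myh8, Myh1, Myh2, Myh7, Myl1, Myl4, Myl6b and Mylpf, were taken by their symbols out of 42391 gene entries in the raw count matrix, and all 9 were present. There were 4 groups of 2 wild-type samples each. C2C12 cells, an immortalized mouse myoblast line, received non-targeting (control) or Septin9 siRNA at 50 nM, with 100 nM during the first 5 h, and were collected at 60 h, after 12 h in differentiation medium. Primary myoblasts from hindlimb muscle of mice 5 weeks old (pMb in the labels) received either siRNA and were collected 48 h later while kept in proliferation medium. Per the study's methods the samples come from 2 independent experiments. Whether the primary myoblasts of both came from different mice is not given in the sources used here.

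A skeletal myosin molecule consists of a pair of heavy chains, which hold the ATP-driven motor and form the thick filament of the sarcomere, and of essential and regulatory light chains bound at the neck of each motor. Muscle exchanges its heavy chains as it matures. Myh3 encodes the embryonic chain and Myh8 the perinatal chain, Myh2 and Myh1 encode the adult fast IIa and IIx chains, and Myh7 encodes the slow chain, which the heart uses as well. Of the light chains, Myl1 encodes the fast essential, Myl4 the embryonic and atrial essential, Myl6b a slow essential and Mylpf the fast regulatory chain. Cycling myoblasts are known to hold little of any of them, and differentiation switches them on.

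The fast heavy chain genes lie side by side on chromosome 11 in GRCm38.p6, all on the plus strand, with Myh3 at chr11:67078273-67102291, Myh2 at chr11:67171027-67197517, Myh1 at chr11:67200102-67224577 and Myh8 at chr11:67277124-67308634. Myh7 lies apart, at chr14:54970684-54994626 on the minus strand. Their promoters (RefSeq, GRCm38.p6, 250 bases before to 50 after the start, found for all 9 genes) are shown for the genes the results turn on. The first pair, for the embryonic heavy chain and the fast regulatory light chain, is shown with the E-box CANNTG, the site of the MyoD family, and TATAAA in capitals.
Myh3, chr11:67078050-67078349, plus strand: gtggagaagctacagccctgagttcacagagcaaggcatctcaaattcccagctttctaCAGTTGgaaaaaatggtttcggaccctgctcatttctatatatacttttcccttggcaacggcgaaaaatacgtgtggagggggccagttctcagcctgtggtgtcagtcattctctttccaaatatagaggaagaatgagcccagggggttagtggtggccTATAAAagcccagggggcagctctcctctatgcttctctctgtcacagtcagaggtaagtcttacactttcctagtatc
Mylpf, chr7:127211358-127211657, plus strand: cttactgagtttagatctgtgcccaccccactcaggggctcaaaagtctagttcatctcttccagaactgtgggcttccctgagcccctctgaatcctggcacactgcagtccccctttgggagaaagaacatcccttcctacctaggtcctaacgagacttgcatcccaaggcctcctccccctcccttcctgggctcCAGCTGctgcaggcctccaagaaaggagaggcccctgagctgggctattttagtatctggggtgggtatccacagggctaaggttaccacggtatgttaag
Myh3 held 1 E-box, at -191 from the start, and TATAAA at -29. Mylpf held 1 E-box, CAGCTG, at -51, and no TATAAA. These matches are common: searched on both strands, CANNTG was present in 72.3%, CAGCTG in 16.3% and TATAAA in 13.6% of the 32851 promoters of this length.

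The perinatal and adult fast chains have stretches of promoter in common that were not found in Myh3. The longest run shared by Myh8, Myh1 and Myh2, TTCTAATTATATCC, and the longest shared by Myh8 and Myh1, TCAAATTATTTATAGGAGATTG, are in capitals.
Myh8, chr11:67277010-67277093, plus strand: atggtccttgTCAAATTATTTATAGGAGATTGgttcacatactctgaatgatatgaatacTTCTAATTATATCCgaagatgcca
Myh1, chr11:67199882-67199965, plus strand: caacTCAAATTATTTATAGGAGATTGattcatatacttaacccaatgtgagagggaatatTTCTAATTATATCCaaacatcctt
Myh2, chr11:67170842-67170925, plus strand: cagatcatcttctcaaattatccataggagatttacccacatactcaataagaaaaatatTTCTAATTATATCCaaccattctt
TTCTAATTATATCC was found in 4 of 32851 promoters (0.0122%, both strands), those of Myh1, Myh2, Myh8 and Myh4, the adult fast IIb chain, and starts at -54 in Myh8, -160 in Myh1 and -125 in Myh2. The longer run, which overlaps TATAAA on the other strand, was found in 2 promoters (0.00609%). These genes are close copies of each other, the comparison was chosen after the sequences had been seen, and a match is not a site.

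Depth was 20898611 to 26869868 counted reads in C2C12 and 21133806 to 27223414 in primary myoblasts. Septin9, the target, was at 409 and 435 CPM (read counts scaled to library size by the TMM method) in C2C12 control replicates 1 and 2, and at 147 and 185 CPM after its siRNA. In primary myoblasts it was at 375 and 473 CPM in controls and at 208 and 159 CPM after the siRNA. All 6 skeletal myoblast markers, Myod1, Myf5, Des, Cdh15, Pax7 and Myog, were above 1 CPM in every group. Fibroblast markers summed to 2265 to 2954 CPM in C2C12, with Thy1 and Tcf21 at 0, and to 317 to 631 CPM in primary myoblasts, with Tcf21 at 0. Most of either sum was Col3a1. Primary myoblast replicate 2 stood apart in this list, with 5 of 6 markers above replicate 1 in both the control and the knockdown. Pdgfra was at 1.03 CPM in control replicate 1 and 31.7 CPM in control replicate 2 (30.8-fold), Dcn at 0.258 and 13.3 CPM (51.8-fold) and Thy1 at 0.515 and 8.55 CPM (16.6-fold). After Septin9 siRNA, Pdgfra was at 0.895 and 32.0 CPM, close to the control of the same replicate. Endothelial, immune and adipocyte markers summed to at most 4.10 CPM in any sample. The smooth muscle list, which holds Des, summed to 542 to 2513 CPM and the cardiac list, with Myl7 at 0, to 82.5 to 1328 CPM. Most of the cardiac sum was Tnnt2, at 80.8 CPM in the lowest sample and 1325 CPM in the highest. The part of other cells in the results was not tested. The log2 changes of the 9 genes in primary myoblasts are given below also without each replicate.

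Muscle myosin RNA was abundant in the primary myoblasts and scarce in C2C12. The 9 genes took 0.00241% to 0.00668% of counted reads in the C2C12 samples and 0.325% to 1.63% in the primary myoblasts. The embryonic chain Myh3 was at 3.50 and 9.52 CPM in C2C12 control replicates 1 and 2 and at 5017 and 1127 CPM in primary myoblast control replicates 1 and 2. The perinatal chain Myh8 was at 0.137 and 0.184 CPM against 528 and 141 CPM. Every primary myoblast control was above every C2C12 control for each of the 9 genes. The share of all genes with this order was not counted.

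**Figure D1:**
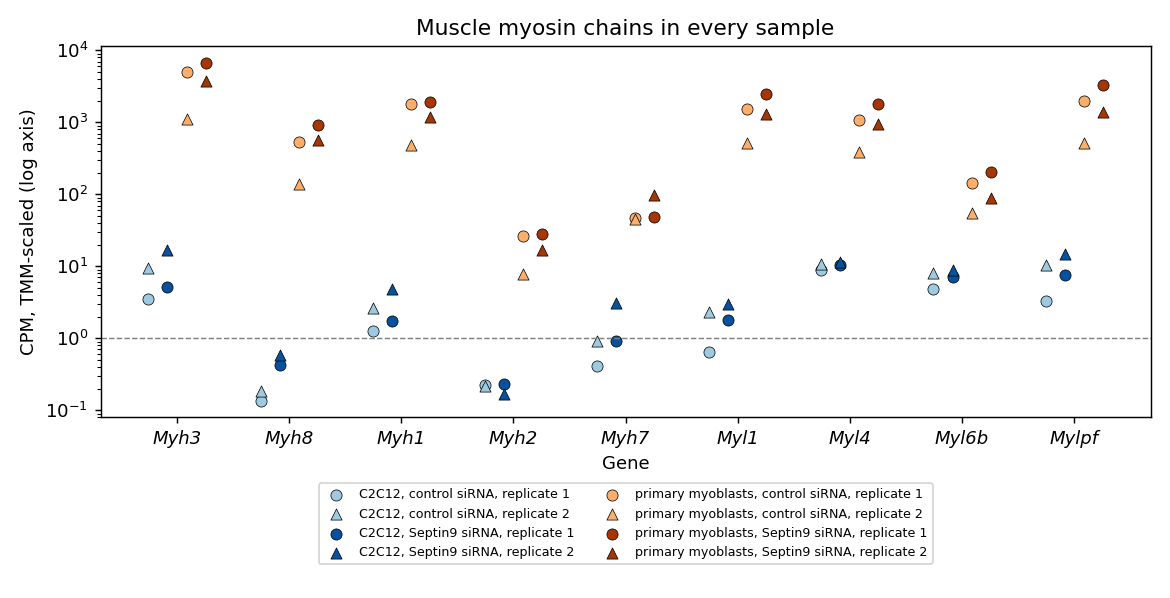
CPM of the 9 genes on a log axis in each of the 8 samples, with colours for cell type and siRNA, circles for replicate 1, triangles for replicate 2 and a dashed line at 1 CPM. Primary myoblasts lie above C2C12 for every gene, and Myh8 and Myh2 lie under the line in all 4 C2C12 samples.

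In edgeR's quasi-likelihood test between the control groups, the 7 genes that passed the count filter within C2C12 were all higher in primary myoblasts (adjusted p below 0.05 and a change of at least 1.5-fold), where 17.5% of 17103 genes were called higher and 15.8% lower. Their log2 difference ranged from 3.93 ± 0.56 (SE, adjusted p = 0.0106) for Myl6b to 9.40 ± 1.00 (adjusted p = 0.00648) for Myl1. Myl1 had a second entry in the matrix, described below. With both entries summed, an alternative chosen after seeing the data, its difference was 8.28, below 9.19 for Myh1. Myh8 and Myh2 were called too, but they entered this test through the primary myoblasts alone, with 3 to 6 reads per C2C12 control, so their fold is not given. Cell source, medium and time after transfection all differ between these groups and cannot be told apart. With 1 C2C12 control left out, the difference of each of the 9 genes stayed positive, but most were no longer called. The spread then came from primary myoblasts alone, so calls are not counted.

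Several chains were at the edge of detection in C2C12. Myh8 held 3 and 5 reads in C2C12 controls and 9 and 14 after Septin9 siRNA, and Myh2 held 5 and 6 against 5 and 4. Both were under 1 CPM in all 4 C2C12 samples, and neither passed the filter on low counts there. Myh7 was under 1 CPM in 3 of 4 C2C12 samples and Myl1 in 1, the control of replicate 1. There Myl1 was at 0.637 CPM, or at 2.50 CPM with its second entry added. None of the 9 was under 1 CPM in any primary myoblast sample.

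Per length of the longest coding transcript (RPKM, CPM per kilobase), light chains took the first places in both cell types. In C2C12 controls the embryonic light chain Myl4 was at 9.41 and 11.5 RPKM and Mylpf at 4.28 and 13.8 RPKM. The fast essential chain Myl1 was at 0.589 and 2.18 RPKM there on 1 of its 2 entries, below Myl4 and Myl6b in each sample. Both Myl1 entries together were at 2.50 and 7.91 CPM, against 4.91 and 8.09 CPM for Myl6b. In primary myoblast controls Mylpf was at 2580 and 681 RPKM, Myl1 at 1425 and 478 RPKM and Myl4 at 1155 and 408 RPKM.

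Below these 3 followed Myh3 at 832 and 187 RPKM, Myh1, Myl6b, Myh8, Myh7 and Myh2, the last at 4.28 and 1.30 RPKM. Both primary myoblast controls gave this same order within the sample. Across samples only Myh8 above Myh7 and Myh7 above Myh2 did not overlap between neighbours. In C2C12 controls the order of the means was Myl4, Mylpf, Myl6b, Myl1, Myh3, Myh1, Myh7, Myh2 and Myh8. There Myl4 and Mylpf, Mylpf and Myl6b, and Myl1 and Myh3 overlapped, and Mylpf was above Myl4 in replicate 2 alone. With the length of all annotated exons instead, Mylpf came first in both, and Myh3 moved from place 5 to 4 in C2C12 and from place 4 to 2 in primary myoblasts.

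Among the 5 muscle heavy chains, embryonic myosin made up most of the RNA in both cell types. Non-muscle heavy chains are outside this sum. Of these, Myh9 was at 1807 and 1723 CPM in C2C12 control replicates 1 and 2. In primary myoblast controls Myh9 was at 1306 and 1615 CPM. Counted per kilobase of annotated exon, Myh3 held 66.5% and 73.4% of the 5 heavy chains in C2C12 control replicates 1 and 2, and 71.0% and 66.1% in primary myoblast controls. Myh1, the adult IIx chain, came next with 23.1% and 19.5% in C2C12 controls and 24.4% and 27.3% in primary myoblast controls. The adult IIa chain Myh2 held 3.66% and 1.44%, and 0.312% and 0.392%. The controls of the 2 cell types therefore overlapped in their Myh3 share.

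After Septin9 siRNA the Myh3 share was 65.6% and 70.3% in C2C12 and 73.8% and 71.4% in primary myoblasts. It was lower than in the control in both C2C12 pairs and higher in both primary myoblast pairs. The C2C12 shares rest on few reads: of all heavy chain reads there, 63.1% (95% exact Clopper-Pearson interval 53.9% to 71.7%) in control replicate 1 and 61.0% (53.5% to 68.1%) after Septin9 siRNA were Myh3. Such intervals cover counting error only.

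**Figure D2:**
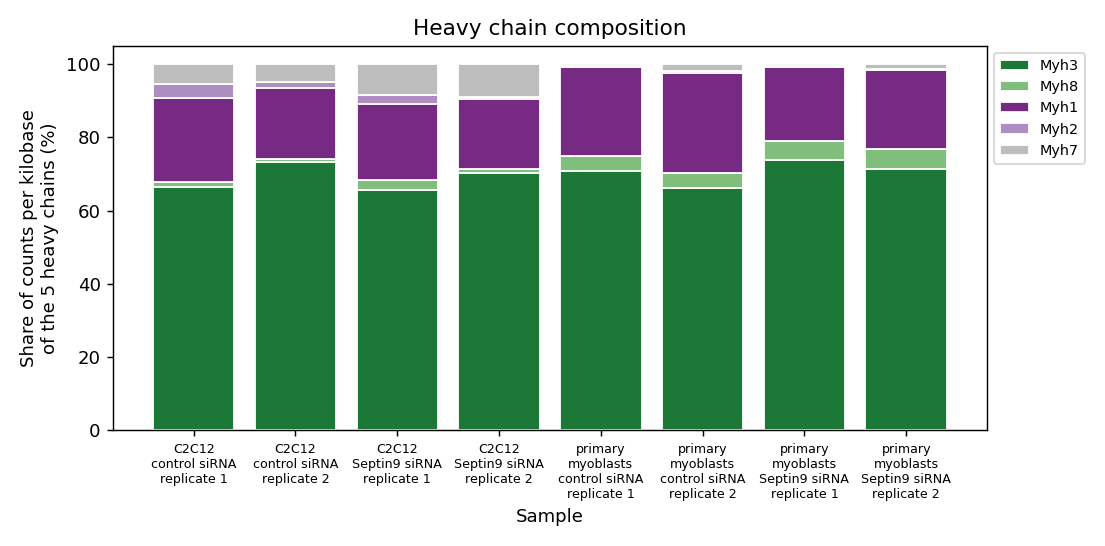
Stacked bars of the share (%) of each heavy chain in the counts per kilobase of the 5 heavy chains, 1 bar per sample. Myh3 takes 65.6% to 73.8% of every bar, Myh1 most of the rest, and Myh7 is visible mainly in C2C12.

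The Myh1 share was lower after Septin9 siRNA in all 4 pairs, with changes of -0.46 to -5.85 percentage points, and the Myh8 share was higher in all 4, by 0.51 to 1.40 points, or by 0.90 to 2.46 points with the length of the longest transcript, since annotated exons of Myh8 add up to 11772 bases against 6149 in that transcript. The share of the slow chain Myh7 went different ways in the cell types, though its CPM was higher in all 4 pairs, as given below. The Myh7 share was 5.46% and 4.98% in C2C12 controls and 8.31% and 8.94% after Septin9 siRNA. In primary myoblasts it was 0.462% and 1.89% in controls against 0.369% and 1.32%. The shares are a description, and no test was run on them.

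In C2C12, the embryonic heavy chain, the slow heavy chain and the fast regulatory light chain were called higher after Septin9 siRNA in the main edgeR fit. Some alternative fits, given below, called none of them. Myh3 was at 3.50 and 9.52 CPM in control replicates 1 and 2 and at 5.17 and 17.1 CPM after Septin9 siRNA. Myh7 was at 0.410 and 0.919 CPM against 0.932 and 3.09 CPM, and Mylpf at 3.28 and 10.6 CPM against 7.60 and 14.9 CPM. Each knockdown sample was above its own control, but for Myh3 and Mylpf the knockdown of replicate 1 was below the control of replicate 2.

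With the replicate number as a block, the log2 change was 0.74 ± 0.15 (SE, adjusted p = 0.00426) for Myh3, 1.57 ± 0.34 (adjusted p = 0.00754) for Myh7 and 0.76 ± 0.16 (adjusted p = 0.00589) for Mylpf by edgeR. These were 3 of the 7 members tested, against 0.828% of 15814 genes called up and 0.74% called down. All 7 were higher in both pairs, as 31.3% of the genes were, with a median of 0.73 against -8e-04 over all genes. No member was called without the block or in DESeq2 with it, where Myh7 had no adjusted p. A fit of all 8 samples also called no member in C2C12. Replicates were left out in a fit of both cell types, where the spread came from primary myoblasts, so calls are not given. Without replicate 1, the log2 change was 0.84 for Myh3, 1.74 for Myh7 and 0.49 for Mylpf. Without replicate 2 it was 0.56, 1.17 and 1.21.

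The other C2C12 members did not pass the test. The adult chain Myh1 was at 1.27 and 2.65 CPM in controls and 1.72 and 4.84 CPM after Septin9 siRNA (log2 change 0.72 ± 0.25, adjusted p = 0.0956 by edgeR). Myl1 was at 0.637 and 2.35 CPM against 1.82 and 2.96 CPM (0.73 ± 0.30, adjusted p = 0.180 by edgeR). Myl6b and Myl4 had log2 changes of 0.32 ± 0.16 and 0.16 ± 0.13, with adjusted p of 0.287 and 0.571 by edgeR. Of the untested Myh8 and Myh2, Myh8 had more reads after Septin9 siRNA in both pairs. Of the 9, Myh8 and Myh7 had both knockdown samples above both controls, as 13.3% of tested genes did.

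In primary myoblasts, 6 of the 9 chains were called higher after Septin9 siRNA in the main edgeR fit. These were the embryonic and perinatal heavy chains and all 4 light chains. Some alternative fits, given below, called fewer or none. Myh3 was at 5017 and 1127 CPM in control replicates 1 and 2 and at 6729 and 3734 CPM after Septin9 siRNA. Myh8 was at 528 and 141 CPM against 914 and 562 CPM. Only Myh8 and Myh7 had both knockdown samples above both controls, a pattern that 12.5% of all genes showed in this direction.

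The log2 change was 1.08 ± 0.24 (SE, adjusted p = 0.0134) for Myh3 and 1.39 ± 0.20 (adjusted p = 0.000632) for Myh8 by edgeR with the block. The background was 2.87% of 17117 genes called up and 0.298% called down. Myh8 gained on Myh3 within samples as a description without a test: the log2 ratio of Myh8 to Myh3 counts was higher after Septin9 siRNA by 0.37 and 0.27 in the pairs here, and by 1.06 and 0.83 in the C2C12 pairs on 3 to 14 Myh8 reads.

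The light chain changes ran from 1.53-fold to 2.12-fold. Mylpf was at 1977 and 522 CPM in controls and at 3324 and 1393 CPM after Septin9 siRNA (log2 change 1.09 ± 0.18, adjusted p = 0.00131 by edgeR). Myl1 was at 1542 and 518 CPM against 2462 and 1312 CPM (1.01 ± 0.17, adjusted p = 0.00188 by edgeR), and Myl4 at 1089 and 385 CPM against 1784 and 965 CPM (1.02 ± 0.16, adjusted p = 0.00117 by edgeR). Myl6b, at 142 and 55.9 CPM against 206 and 89.8 CPM, had the smallest called change (0.61 ± 0.11, adjusted p = 0.00318 by edgeR). For all 4 the control of replicate 1 was above the knockdown of replicate 2.

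The adult fast chains Myh1 and Myh2 and the slow chain Myh7 did not pass the test in primary myoblasts. The adult fast IIb chain Myh4, which is not a member, did, as given below. Myh1 was at 1811 and 488 CPM in controls and 1950 and 1177 CPM after Septin9 siRNA (log2 change 0.69 ± 0.21, adjusted p = 0.0683 by edgeR). Myh2 was at 26.0 and 7.88 CPM against 28.3 and 16.6 CPM (0.55 ± 0.18, adjusted p = 0.0804 by edgeR). Myh7 was at 46.5 and 45.8 CPM against 47.8 and 98.3 CPM (0.58 ± 0.17, adjusted p = 0.0594 by edgeR). In all 3 the change lay in replicate pair 2, with log2 ratios of 1.27, 1.07 and 1.10 against 0.11, 0.12 and 0.04 in pair 1.

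**Figure D3:**
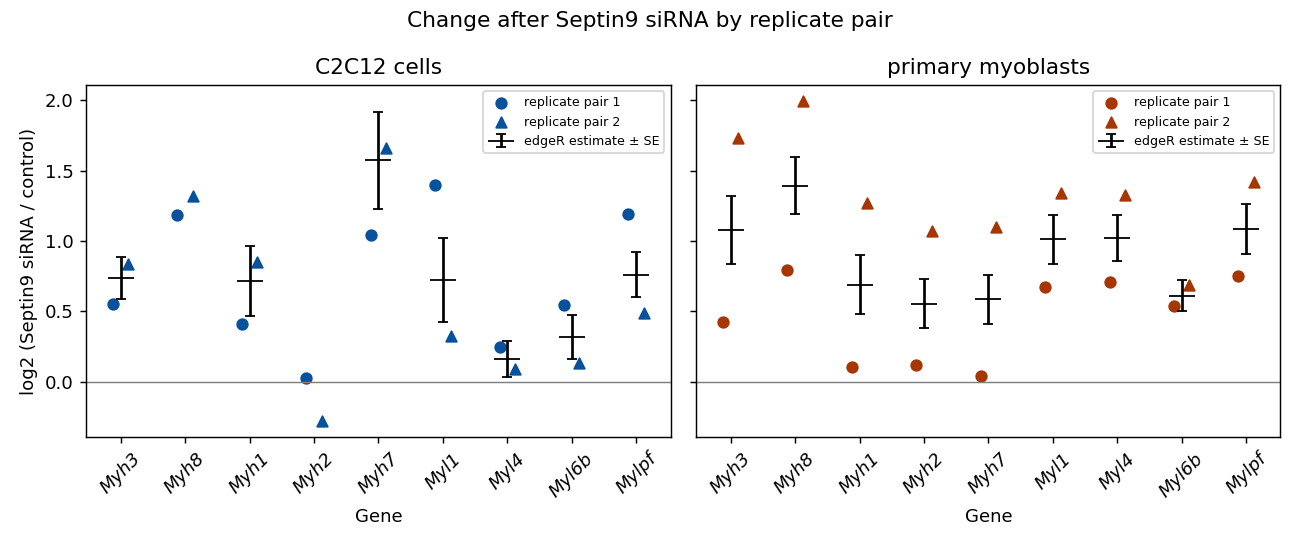
log2 ratio of Septin9 siRNA to control for each gene in C2C12 (left) and primary myoblasts (right), with circles for replicate pair 1, triangles for pair 2, and edgeR's estimate with its standard error as a bar for the genes tested. All primary myoblast points lie above 0, those of pair 2 highest.

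All 9 genes were higher in both primary myoblast pairs, as 32% of the genes were, and pair 2 exceeded pair 1 for each gene. The pairs lay farther apart than the edgeR error: for Myh3 they were 0.42 and 1.73 against an SE of 0.24, an error that borrows from the spread of all genes and has 1 residual degree of freedom of its own. Without the block no member was called, and DESeq2 with the block called 3, Myl1, Myl4 and Myl6b. With a replicate left out, 1 primary myoblast pair remained and the spread came from C2C12 alone, so calls are not given. The log2 change was then 1.74 without replicate 1 and 0.42 without replicate 2 for Myh3. For Myl6b it was 0.69 and 0.53, the last under 1.5-fold as for Myh3. In the same order it was 2.00 and 0.79 for Myh8 and 1.42 and 0.75 for Mylpf. For Myl1 it was 1.35 and 0.67, and for Myl4 1.33 and 0.71. The chains not called had 1.28 and 0.10 (Myh1), 1.09 and 0.12 (Myh2), and 1.11 and 0.04 (Myh7). Myh3 was also lost with RLE scaling (adjusted p = 0.0981) and with library size alone (adjusted p = 0.0959) in edgeR, and in DESeq2 on the deposited batch-corrected counts (adjusted p = 0.244).

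The gap between control replicates was larger than both pair changes for 6 genes in C2C12 and for 7 in primary myoblasts. Control replicate 2 was above replicate 1 in C2C12 for all but Myh2, by 2.72-fold for Myh3. In primary myoblasts replicate 1 was above replicate 2, by 4.45-fold for Myh3 and 1.01-fold for Myh7. Myog, which drives terminal differentiation, showed gaps in the same directions, with 5.19 and 37.5 CPM in C2C12 controls and 1019 and 401 CPM in primary myoblast controls. Of the 6 myoblast markers, all were higher in replicate 2 of the C2C12 controls, while in the primary myoblast controls 4 were higher in replicate 1 and 2 in replicate 2, Myod1 (686 and 810 CPM) and Pax7 (87.9 and 90.5 CPM). The fibroblast markers Pdgfra, Dcn and Thy1 were higher in primary myoblast replicate 2, as given above, and their part in the gap was not tested. In bulk RNA, more cells that express a gene and more RNA per cell cannot be told apart.

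**Figure D4:**
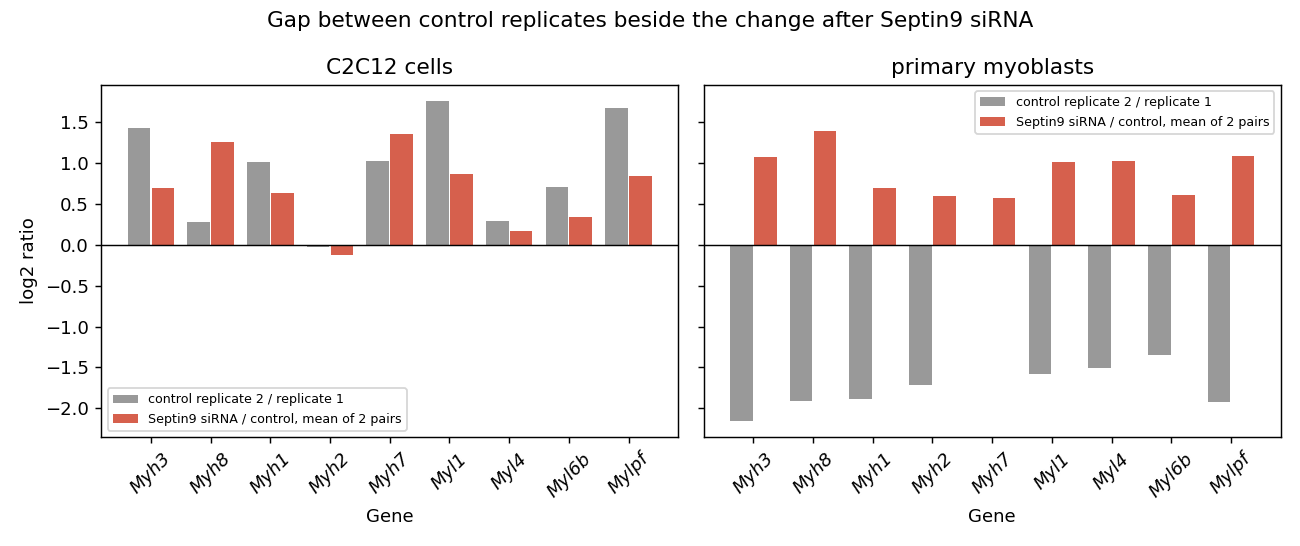
log2 ratio of control replicate 2 to replicate 1 (grey) and mean log2 ratio of Septin9 siRNA to control over 2 pairs (red) for each gene in C2C12 (left) and primary myoblasts (right). The grey bars point up in C2C12 except Myh2 and down in primary myoblasts, and most exceed the red ones.

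No member's change was called different between cell types in the edgeR interaction test over 8 samples. That test called 0 of 17918 genes (0%), with 1469 at unadjusted p below 0.05, and DESeq2 called 21 genes but no member. Of the members, Myl4 alone was below 0.05 unadjusted, with a difference in log2 change of 0.85 ± 0.22 (primary myoblasts minus C2C12, adjusted p = 0.343 by edgeR). The interaction for Myh7 was -1.01 ± 0.54 (adjusted p = 0.684 by edgeR). The SE ranged from 0.16 for Myl6b to 1.04 for Myh8, and a p that misses the threshold does not show equal changes. With a primary myoblast replicate left out, the spread came from C2C12 alone, so calls are not given. Without replicate 1 the interaction was 0.99 for Myh3, 1.18 for Myl4, 0.71 for Mylpf and -0.48 for Myh7. Without replicate 2 it was -0.33, 0.56, 0.03 and -1.55.

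Some counts cannot be assigned to 1 gene with certainty. Septin1 overlaps the end of Mylpf on chromosome 7 by 1580 bases in RefSeq, with 0 bases of exon in common in GENCODE M21, which is not the release the study counted with. Its counts exceeded those of Mylpf by only 18 to 54 reads in every sample, from 104 against 72 reads in C2C12 control replicate 1 to 74336 against 74282 reads. Myl1 had a second entry in the matrix, which held 68.3% to 74.6% of the reads of both entries in C2C12 and 35.8% to 36.7% in primary myoblasts. With both summed, Myl1 was called in C2C12 too (log2 change 0.67, adjusted p = 0.0308 by edgeR), an alternative chosen after seeing the data. Myh1 has 515 of its 6353 exon bases in common with the noncoding gene Myhas. The counts of Myhas were 5.93% to 10.8% of those of Myh1, and the effect on the Myh1 counts was not tested.

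The heavy chains are close copies. Coding sequences (GENCODE M21) of Myh1 and Myh2 were identical at 91.1% of aligned bases, those of Myh8 and Myh1 at 89.4%, and those of Myh3 and the other 4 at 77.6% to 81.7%. Of all 100-base windows of the coding sequence, 1.19% in Myh3, 7.00% in Myh8, 10.2% in Myh1, 9.58% in Myh2 and 12.0% in Myh7 occurred in another heavy chain gene, and none in the light chains. The study's methods give paired-end reads longer than these windows. The low C2C12 counts of Myh8, Myh2 and Myh7, the last called there on 9 to 74 reads, could hold reads of another heavy chain. This was not tested.

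Other genes of the thick filament were counted from lists. Of 14 partners of myosin, 11 were tested in C2C12, with 2 up and none down: Mybph, a myosin-binding protein (log2 change 1.08 ± 0.21, adjusted p = 0.00293 by edgeR), and Smyd1, which helps myosin assembly (1.10 ± 0.24, adjusted p = 0.00854 by edgeR). In primary myoblasts 13 were tested, with 8 up and none down: Mybpc1, Mybph, Myom1, Myom3, Unc45b, Smyd1, Mylk4 and Trim63. Their log2 changes ranged from 0.68 for Mylk4 to 0.97 for Unc45b, the chaperone of striated muscle myosin. Over these 8, the log2 ratio in primary myoblasts ran from 0.28 to 0.61 in pair 1 and from 0.99 to 1.57 in pair 2. No partner was called in either cell type without the block. Of all genes, 0.828% were called up and 0.74% down in C2C12, and 2.87% up and 0.298% down in primary myoblasts. The median over the tested partners was 0.46 in C2C12 and 0.80 in primary myoblasts, against -8e-04 and 0.01 over all genes.

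Of 7 other sarcomeric myosin genes, 1 was tested in C2C12 and not called. In primary myoblasts 6 were tested and 2 were called up, Myh4 (log2 change 1.57 ± 0.21, adjusted p = 0.000262 by edgeR) and Myh13, the extraocular chain (1.03 ± 0.26, adjusted p = 0.0250 by edgeR). Of 8 non-muscle and smooth muscle myosin genes, such as Myh9 and Myl9, edgeR tested 6 in C2C12 and 7 in primary myoblasts and called 0 in both, with 4 and 2 at unadjusted p below 0.05. Over all genes, 2962 of 15814 in C2C12 and 2864 of 17117 in primary myoblasts were below 0.05 unadjusted. The shares of all genes called are those given for the partners. The medians of the non-muscle and smooth muscle genes were -0.17 and -0.06. DESeq2 with the block also called 0 of them.

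The genes most like Myh3 over the 8 samples, by the root mean square difference of log2 CPM centred within each cell type, were Atp2a1 (0.155), Ccdc141 (0.189), Sntb1 (0.198), Tnnt3 (0.217) and Klhl41 (0.220), where the median of 13647 genes was 0.934. For Mylpf they were Septin1 (0.121), Mybph (0.162), Tnnc2 (0.163), Ccdc141 (0.165) and Sntb1 (0.170), Septin1 with the nearly equal counts given above. Among the members, Myl1 lay nearest to Mylpf (0.145) and Myh1 nearest to Myh3 (0.199). The distance uses the replicate gaps as well as the siRNA change.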

How the data were processed

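Poly(A) RNA of 8 samples was sequenced. Per the submitters' processing notes the tools were STAR 2.7.2, featureCounts 2.0.1 and DESeq2 1.40.1, with reads mapped to GRCm38.p6. The authors deposited raw counts of all samples, used here, and a batch-corrected normalized table per cell type. The values of that deposited signal table became whole counts once the size factors were undone (100% within 0.01) and served as an alternative. The raw table had 16 broken lines, left out.

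Raw counts were tested with edgeR 4.0.16 (R 4.3.3; TMM, filterByExpr, quasi-likelihood, Benjamini-Hochberg over all genes), per cell type with the replicate number as a block, since the study modelled batches. Same-numbered samples deviated together (correlation across genes 0.678 in C2C12, 0.820 in primary myoblasts), and the study's methods name 2 independent experiments, though no source used here ties a replicate number to one. Control groups were compared without a block, and the interaction used a block nested in cell type. A gene was called at adjusted p below 0.05 and a change of at least 1.5-fold, the interaction at adjusted p alone. Pair ratios used log2 CPM with a prior count of 2. Scripts were tested on simulated data. Alternatives included DESeq2 1.42.0, scaling, filters and omitted replicates.

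Named were the 9 members, Septin9, Septin1, the called genes of 3 lists and the 5 genes most like Myh3 and Mylpf. Myog was named after its values were seen. Members and lists were chosen with earlier results of these data known. Sequences and coordinates are from RefSeq, and lengths from GENCODE M21, while the study counted with another release.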

Additional observations from a re-analysis of the deposited data

Results flagged for a closer look

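After Septin9 siRNA, 3 heavy chain measures moved one way in both C2C12 pairs and the other way in both primary myoblast pairs. The log2 ratio of Myh7 to Myh3 counts changed by 0.62 and 0.91 in the C2C12 pairs and by -0.38 and -0.63 in the primary myoblast pairs, a difference of mean changes of -1.27 (primary myoblasts minus C2C12). The Myh3 share of the heavy chains per kilobase changed by -0.89 and -3.15 percentage points in C2C12 and by 2.85 and 5.27 in primary myoblasts, a difference of 6.08. The Myh7 share changed by 2.85 and 3.95 points in C2C12 and by -0.09 and -0.57 in primary myoblasts, a difference of -3.73. These 3 measures share counts, and 10 ratios and shares were examined. The differences were not tested on the ratios and shares themselves, and Myh7 had 9 to 74 reads in the C2C12 samples. The edgeR interaction for the Myh7 level was not called.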

How the results depend on the processing

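The replicate block carried most calls. With no replicate block edgeR called 0 members in C2C12 (3 with it) and 0 in primary myoblasts (6), and 0 partners in both and 0 other sarcomeric genes in primary myoblasts. No gene of the whole table was called then, against 248 and 542. DESeq2 with the block called 0 members and 0 partners in C2C12, and 3 members, 3 partners and 0 other sarcomeric genes in primary myoblasts (99 and 230 genes in all). DESeq2 on the deposited batch-corrected counts called 2 members in C2C12 (Myh7 had no adjusted p) and 5 in primary myoblasts (without Myh3), 1 and 3 partners, and 1 other sarcomeric gene in primary myoblasts (154 and 389 genes). Without its low-count filter, a setting chosen after seeing the data and after its totals had been set beside published ones, it called 0 and 3 partners (123 and 331 genes). One fit of all 8 samples called 0 members and 0 partners in C2C12 and 1 other sarcomeric gene in primary myoblasts (83 and 378 genes). RLE and library size scaling left 1 partner and 1 other sarcomeric gene each in primary myoblasts (260 and 206 genes). Library size alone lost Myl6b in primary myoblasts (log2 change 0.58, under 1.5-fold) and moved the upward share of calls in C2C12 from 52.8% to 62.7% and in primary myoblasts from 90.6% to 80.1%. With no fold threshold 5 partners passed in C2C12. With no filter the interaction called 1 member, Myl4 (255 genes).

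Replicates were left out in a fit that pools the spread of all groups, so a lone sample is assumed to vary like the rest. Calls in C2C12 then ranged from 0 to 1 for members and from 1 to 2 for partners. In primary myoblasts partners ranged from 1 to 9 and non-muscle genes from 0 to 1. Interaction calls ranged from 0 to 3 members, and calls between controls from 1 to 9. Interaction values changed sign for Myh1 with DESeq2 (0.022), and with a replicate left out ranged from -0.63 to 0.54 for Myh1, -0.50 to 0.70 for Myl1, -0.13 to 0.71 for Mylpf, -0.82 to 0.39 for Myh8 and -0.33 to 0.99 for Myh3. The Myh3 share averaged 64.0% (longest transcript) and 63.6% (no length) in C2C12 and 68.5% and 68.2% in primary myoblasts after Septin9 siRNA, and 64.9% without length in primary myoblast controls. Except where an alternative's construction shows it, the cause was not tested.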
